A study of Canis lupus familiaris and Eptesicus fuscus and Equus caballus with 6 samples.

Results

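The transposable element transcriptome of the testis of an adult big brown bat (Eptesicus fuscus) was measured in 1 mRNA library, quantified over 511 repeat element models. These models are all rows of the bat expression table, and they are 511 of the 2452 models in the tables of the bat, dog and horse testis mRNA libraries. The whole series holds 6 libraries, a small RNA and an mRNA library for each of the 3 species, all labelled as adult testes, with no treatment and no genotype named. The library had no replicate, and the labels speak of 1 bat, so every error given here covers counting or read assignment and not the spread between animals. Total RNA came from frozen, ground testes by TRIzol extraction, per the labels' protocols. The table listed element models only, with no gene, so the tissue label was not checked against marker genes of testis. The library held 55904 expected counts on element models. An expected count is the number of reads that RSEM assigns to a model after dividing reads that match several models. TPM is the same signal per length of model, scaled to 1000000 over the 511 models. Consensus sequences of the models were not used here.

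Transposable elements fall into retrotransposons, which copy themselves through RNA, and DNA transposons, which move as DNA. LINEs such as L1 encode their own reverse transcriptase, and SINEs are short elements that borrow it. Endogenous retroviruses carry a coding internal part between long terminal repeats (LTRs) that drive their transcription, and many copies survive as a lone LTR. Vespertilionid bats such as Eptesicus are known among mammals for recent activity of DNA transposons, including hAT, Tc/mariner and PiggyBac elements and the rolling-circle Helitrons. In the male germ line the piRNA pathway acts against such elements. RNA that holds element sequence can come from an element's own promoter or from a longer transcript that contains the element, and the counts do not separate these.

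Most models carried reads, and the share that did so differed between classes. An expected count above 0 was found for 383 of the 511 models (75.0%), and 128 models were at 0. At least 10 counts were found for 269 models (52.6%). Classes were taken from the text after the # sign in each name, with the single BovB model placed among the LINEs and the single separately filed mariner among the Tc/mariner elements. Counts were found for 84 of 85 Helitron models, 22 of 25 LINE models and 37 of 43 SINE models. Among LTR elements 150 of 211 models had counts, close to the share over all models, and these elements supplied 61 of the 128 models at 0. Tc/mariner elements had counts for 31 of 49 models, hAT elements for 28 of 50 and PiggyBac elements for 8 of 16. Of the DNA transposons filed without a superfamily 20 of 28 had counts, and of the models of unknown class 3 of 4.

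**Figure D1:**
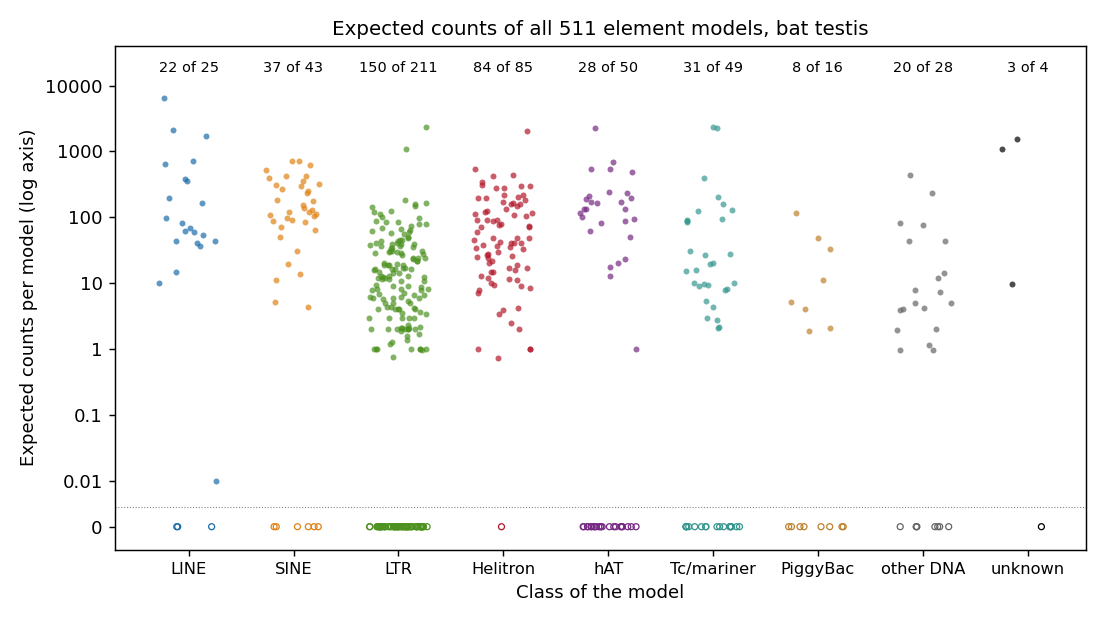
Expected counts of each of the 511 models (points, log axis) by class, with models at 0 drawn as open circles under the dotted line and the number of models with counts printed above each class. Helitrons lack models at 0 apart from 1, while hAT models lie either at 0 or, with 1 exception, at 10 counts or more.

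Models with counts mostly had at least 10 in hAT elements, SINEs and LINEs, while low counts were frequent in LTR elements. Of the 28 hAT models with counts, 27 had at least 10, and the remaining one, MLUC.SPIN_NA_7_ML, had 1. At least 10 were found for 35 of the 37 SINE models and 20 of the 22 LINE models with counts. Of the 150 LTR models with counts, 84 had at least 10 and the other 66 lay between 0 and 10. Over all classes 269 of the 383 models with counts had at least 10. For Helitrons it was 70 of 84 and for Tc/mariner elements 19 of 31. For PiggyBac elements it was 4 of 8 and for DNA transposons without a superfamily 8 of 20. The median over all models of a class was 111 counts for SINEs, 61.4 for LINEs, 41.7 for Helitrons, 5 for LTR elements and 0.95 for PiggyBac elements. These medians are not per length. The median TPM, which is per length, was 5696 for SINEs, 700 for Helitrons, 497 for hAT, 237 for LINEs, 121 for Tc/mariner and 96.9 for LTR elements.

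LINEs, SINEs, LTR elements, Helitrons and the pooled other DNA transposons lay closer together by share of the library than by number of models. LINEs held 24.05% of the counts (exact 95% binomial interval 23.7 to 24.4%) with 25 models, and DNA transposons other than Helitrons held 26.1% (25.8 to 26.5%) with 143. With HAL1 elements, filed under hAT, counted as LINE this order turned, with 30.1% for LINEs and 20.1% for DNA transposons. Helitrons held 17.6% (17.3 to 17.9%), SINEs 14.04% (13.8 to 14.3%) and LTR elements 13.4% (13.1 to 13.7%). Within the DNA transposons hAT elements held 12.8%, Tc/mariner elements 11.1% and PiggyBac elements 0.399%. By TPM, which is per length, SINEs held 38.7% and LINEs 2.07%.

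LINE counts came mainly from 4 L1 models of the EF series, which are named with the suffix of this bat species. L1-4A_EF had 6558 counts (11.7% of the library) on a model of 9379 nt. It was followed by L1-2A_EF with 2083, L1-1A_EF with 1723 and L1-3A_EF with 723. Per length the order was the same, with a TPM of 6488 (deposited interval 6232 to 6582) for L1-4A_EF and 2900 (2734 to 3004) for L1-2A_EF. L1-1A_EF stood at a TPM of 2211 (2076 to 2296) and L1-3A_EF at 1015 (924 to 1079). None of these 4 intervals overlapped its neighbour, and L1-4A_EF was 2.24 times L1-2A_EF in TPM. The 4 models held 19.8% of the library (exact 95% binomial interval 19.5 to 20.2%).

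Models filed as LINE and named after other bats each carried fewer reads than any of the 4 EF L1 models. RFER.R45.L1 had 639 counts, and at a TPM of 1509 (1374 to 1608) it stood above L1-3A_EF per length. MLUC.L1MAB2_ML had 378 and PVAM.L1-4_PVA had 360. The 4 ancient L1M models without a species in the name, L1MB1, L1MB7, L1MC1 and L1MC3, had 44.2 to 81.1 counts each. BOVBA-1_EF, a BovB element of the RTE clade, had 43.0 counts (TPM 126, 90.6 to 165). The longest model of the file at 0 was a LINE, RFER.RHINO.R93.L1 of 4404 nt, with an upper bound of 6.25 TPM. RFER.RHINO.R68_L1B had 41.3 counts (TPM 50.3, 16.3 to 62.2), while RFER.RHINO.R68_L1A, of the same name stem, had 0.01, the smallest value above 0 in the file. The upper bound of R68_L1A was 31.4 TPM, so the intervals of this pair overlapped.

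SINE counts were those of the VES family, the tRNA-derived SINEs of vespertilionid bats. All 33 VES models, of 158 to 256 nt, had counts, from 19.4 for VES.SUB30 over a median of 151 to 724 for VES.SUB12. Together they held 7816 counts (13.98% of the library, 13.7 to 14.3%), while the other 10 SINE models held 34.7. VES.SUB12 stood at a TPM of 36029 (31309 to 39763), VES_MD at 35478 (29787 to 39790) and VES.SUB13 at 31009 (27271 to 33897). These 3 models were not separated by their intervals, and the upper bounds of the other 30 lay under the lower bound of VES.SUB12. The next of these, VES3_ML, had 525 counts and a TPM of 25988 (22872 to 28619), which overlapped VES.SUB13. VES.SUB12 was 35.6 times VES.SUB30 in TPM. 

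SINEs outside the VES family had few counts. Of the 5 RHIN models, named under RFER, 4 were at 0 and RFER.R1.RHIN-1A had 5.19 counts. The longest SINE model at 0 was RFER.R29.RHIN-1C with an upper bound of 70.5 TPM. MIR, an ancient mammalian SINE, was at 0, while MIRB had 11.1 counts (TPM 422) and PVAM_R8.MIRB had 13.96 (TPM 879). The median TPM was 209.7 over all models and 458 over the models with counts. Whether reads of the MIR family were divided among its models was not tested.

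Helitrons were the class with the smallest share of models at 0. All 62 models of the HELITRON EF series had counts, from 1 for HELITRON-34_EF over a median of 41.5 to 2051 for HELITRON-10_EF, and 9 of them had fewer than 10. HELITRON-10_EF held 28.1% of the counts of that series. By TPM the 3 models with most counts lay closer together. HELITRON-26_EF stood at 10183 (9122 to 11002), HELITRON-10_EF at 8913 (8411 to 9197) and HELITRON-53_EF at 7856 (7120 to 8440), and the intervals of neighbours in this order overlapped while those of the first and the last did not. The 17 Helibat models, a family of bat Helitrons that includes the non-autonomous NHELIBAT forms, had counts as well, with 2441 in all. They include 5 pairs of twin models, described below, which held 1766 of these counts, and 3 of the 17 had fewer than 10. The whole-length HELIBAT1 of 5503 nt had 195 counts and a TPM of 330 (282 to 374), under the 3921 (3507 to 4244) of HELIBATN3. The single Helitron model at 0 was MLUC.HELITRON_R385A, and its neighbour in name, MLUC.HELITRON_R385B, had 1.

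The hAT class, as filed, held HAL1 elements and hAT transposons proper. HAL1 is known as a LINE related to L1, and 5 HAL1 models filed under hAT held 3383 counts, 47.3% of that class. MLUC.HAL1-1A_ML had 2248 (TPM 8800, 8289 to 9089) and MLUC.HAL1-2_ML had 701 (TPM 2485). A sixth HAL1 model, PVAM.HAL1-3_PVA, was filed as a LINE and had 59.4. With HAL1 counted as LINE, hAT elements held 6.75% of the library (6.54 to 6.96%), and 23 of their 45 models had counts. The leading hAT transposons were NHAT-3_EF with 550 counts (TPM 25055, 22642 to 26952), MLUC.NHAT70 with 540 (TPM 10792, 9587 to 11732) and MLUC.NHAT34 with 484 (TPM 23944, 21368 to 26136). The intervals of NHAT-3_EF and MLUC.NHAT34 overlapped, and MLUC.NHAT70 lay under both. Names beginning with N mark non-autonomous forms, which lack a transposase of their own. Of 32 hAT models named NHAT 14 had counts, and of 13 others without HAL1 9 had counts. The rule looked only at the start of the name, so the others are not known to be autonomous. They include MLUC.HAT-2N1_ML, MLUC.HAT-2N2_ML and the SPIN_NA models. Among the 32, 4 pairs at 0 were twin models of identical length, described below. MLUC.SPIN_ML, of the SPIN elements known for horizontal transfer, had 210 counts on 2867 nt (TPM 683, 582 to 775). The longest hAT model at 0 was MLUC.HAT-4_ML of 3900 nt, with an upper bound of 7.19 TPM.

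Tc/mariner counts rested on 2 Tc2 models. MLUC.TC2_122_ORF, a model of the open reading frame with 998 nt, had 2375 counts, and MLUC.MYOTIS_TC2 of 1728 nt had 2247. Their counts were nearly level, but per length the reading frame model was 1.85 times higher, at a TPM of 22568 (21359 to 23193) against 12205 (11492 to 12611). The class held 11.1% of the library, and its 47 models other than these leaders held 2.87% of the library. NMARINER-1_EF followed with 393 counts (TPM 8710, 7783 to 9477) and TIGGER1 with 204. Of the Tc1 models, MLUC.TC1_94_ORF had 26.8 counts, MLUC.MYOTIS_TC1 was at 0 and the non-autonomous MLUC.NTC1_950 had 127.1. Among the RFER models of this class 2 of 11 had counts, RFER.R91.GOLEM with 9.40 and RFER.R105.TIGGER2 with 2.75. RFER.R6.SMAR1 of 1307 nt was the longest at 0 among the models filed as Tc/mariner (upper bound 21.4 TPM), and MARINER1_LB of 2294 nt, filed as mariner, was at 0 as well.

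PiggyBac elements gave little RNA. Their 16 models held 223 counts, of which the short non-autonomous NPIGGYBAC-2_EF held 118 (TPM 7366, 6026 to 8662). MLUC.NPIGGY2_41 had 47.8 and MLUC.NPIGGY111 had 33.1. Of the 3 models without the N MLUC.PIGGYBAC2_ML had 2.06 counts on 2639 nt and the other two, MLUC.MYOTIS_PIGGYBAC and PVAM.PIGGYBAC1, were at 0. MLUC.MYOTIS_PIGGYBAC had an upper bound of 10.5 TPM. Among the DNA transposons without a superfamily MLUC.DNAX1_ML led with 440 counts (TPM 20257, 18194 to 21927), followed by REP-1_EF with 235, MLUC.DNAX2_ML with 80.7 and MER87B_ML with 75.9. PVAM.MER75_R53 was the longest of them at 0.

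The 4 models of unknown class were all named under PVAM, and 2 of them were high. PVAM.R255, a model of only 123 nt, had 1087 counts and the highest TPM of the file, 101621 (94754 to 105751), which is 2.82 times that of VES.SUB12. PVAM.R368 of 905 nt had 1561 counts (TPM 16399, 15368 to 17003). The 2 models named RP5S had 9.56 counts (PVAM.R114.RP5S) and 0 (PVAM.R2_RP5S). The class of R255 and R368 is not given in the table.

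LTR elements had the largest number of models and few high ones. MLUC.ERV1-9N-I_ML, the internal part of an endogenous retrovirus of the ERV1 group, had 2364 counts, 31.5% of the class. LTR-4_EF-LTR had 1096 counts and the highest TPM of the class, 24386 (22720 to 25561), which was 7.42 times that of LTR-8_EF-LTR at 3287 (2697 to 3847). LTR-2_EF-LTR had 99.05 counts. Next among the models filed as ERV were MLUC.LTR1A2_ML with 181 counts (TPM 1297) and MLUC.LTR13A_ML with 166 (TPM 2516). The 127 LTR models of the MLUC series spread 2302 counts widely, with 92 above 0 and none over 7.86% of that sum. The share at 0 differed between small name groups, which were chosen after their values were seen. All 4 MLUC.LTR27 models and 5 of 8 MLUC.LTR7 models were at 0, whereas all 11 MLUC.LTR24 models had counts, 4 of them at least 10. Counts were also found for 11 of 14 MLUC.LTR16, 7 of 8 MLUC.LTR18 and 3 of 3 MLUC.LTR13 models. The longest LTR model at 0 was PVAM.R100.LTR of 1369 nt (upper bound 20.4 TPM).

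In 2 of 5 endogenous retroviruses the internal part carried more signal per length than the LTR. In these 5 retroviruses of the MLUC series both parts had a model. MLUC.ERV1-9N-I_ML stood at a TPM of 3736 (3532 to 3842), while its LTR of 453 nt was at 0 with an upper bound of 63.4 TPM. Against a floor of 3 counts on that LTR, the internal part was 57.7 times as high per length. This ratio uses the TPM itself and not the lower bound of its interval. MLUC.ERV2X1A-I_ML, at 208 TPM (174 to 240), was by the same reckoning 4.23 times the floor of its LTR, which was at 0 with an upper bound of 48.7. MLUC.ERV1X1-I_ML had 159 counts and a TPM of 195 (163 to 224), and its LTR had 7.88 counts and a TPM of 238 (103 to 444), so the parts were not separated. In the remaining pairs the LTR was at 0 but the internal part lay under what 3 counts on the LTR would give. MLUC.ERV2X1-I_ML was at 47.5 TPM (32.9 to 63.8) against an LTR bound of 60.8, and MLUC.ERV1X2-I_ML at 14.7 (7.78 to 24.5) against 54.5. Reads that match an LTR can also match other LTR models, and their division was not tested.

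**Figure D2:**
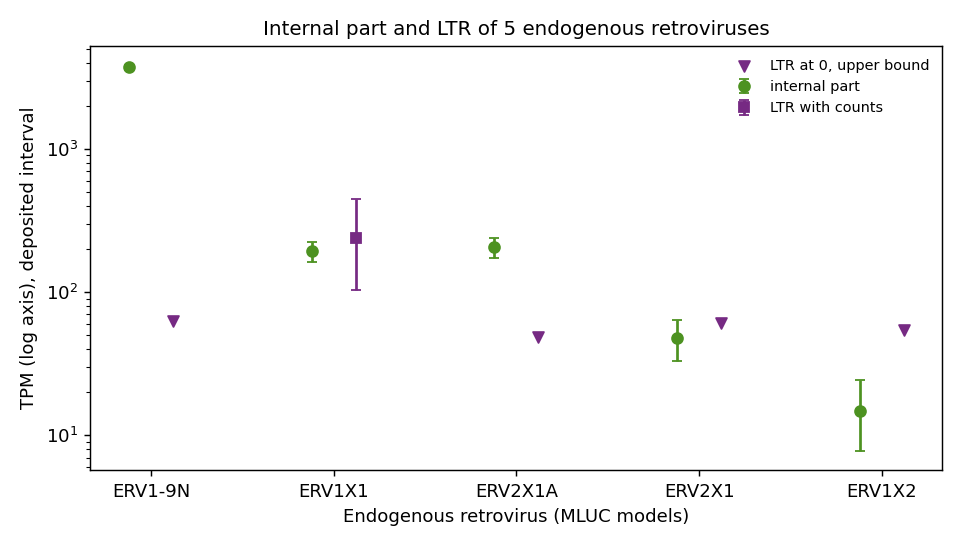
TPM of the internal part (circles) and the LTR (squares) of 5 endogenous retroviruses of the MLUC series, with the deposited intervals, on a log axis; triangles give the upper bound of LTR models at 0. ERV1-9N stands at 3736 TPM in its internal part against an upper bound of 63.4 in its LTR, while the parts of ERV1X1 overlap.

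The share of models with counts differed between the sources given in the names. Names carry a prefix or suffix for the genome in which the model was built, which the table does not spell out. By naming custom EF stands for Eptesicus fuscus and MLUC or ML for the little brown bat Myotis lucifugus, both vespertilionids. PVAM stands for the fruit bat Pteropus vampyrus and RFER for the horseshoe bat Rhinolophus ferrumequinum, which are more distant. Counts were found for 99 of 105 EF models (94.3%), 27 of 27 VES.SUB models, 162 of 228 MLUC models (71.1%), 21 of 37 PVAM models (56.8%) and 17 of 42 RFER models (40.5%), against 75.0% of all models. The other 72 names, which carry no such prefix and no EF suffix, had counts in 57 cases, and 15 of them end in ML without the prefix. The 6 EF models at 0 were LTR-6_EF-LTR, LTR-14_EF-LTR, LTR-16_EF-LTR, LTR-20_EF-LTR, NHAT-100_EF and NMARINER-4_EF.

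Among LTR elements 17 of 21 EF models, 102 of 145 MLUC models, 9 of 16 PVAM models and 9 of 16 RFER models had counts. Among Tc/mariner elements it was 9 of 10 for EF, 14 of 19 for MLUC and 2 of 11 for RFER. LINEs had counts in 5 of 5 EF, 3 of 3 MLUC, 5 of 5 PVAM and 5 of 8 RFER models. For hAT elements it was 3 of 4 for EF and 22 of 33 for MLUC, with the single PVAM and the single RFER model at 0. Class and source are not independent in this table. Of the 105 EF models 62 are Helitrons, and of the 228 MLUC models 145 are LTR elements. EF models held 38.8% of the counts (38.4 to 39.2%) and MLUC models 31.9% (31.5 to 32.3%). VES.SUB models held 10.05%, PVAM models 6.43% and RFER models 1.75%. A further 5 VES models, VES_MD, VES2_ML, VES2B_ML, VES3_ML and VES4_ML, were placed among the other names by this rule and held 3.76% of the counts and 9.83% of the TPM. This order rested on L1-4A_EF, since without it EF models held 30.7% and MLUC models 36.1%. By TPM the VES.SUB models led with 28.01%, followed by MLUC with 22.2% and EF with 19.6%. PVAM.R368 and PVAM.R255 led the PVAM models, and RFER.R45.L1 held 65.1% of the RFER counts, with RFER.R97.LTR-LIKE next at 126 counts.

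**Figure D3:**
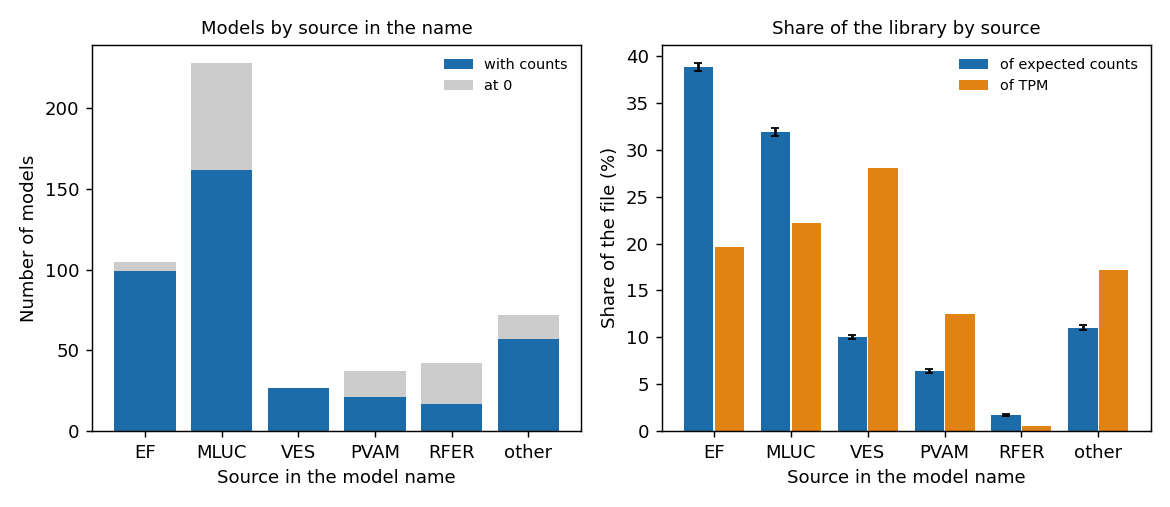
Left, number of models with counts and at 0 for each source in the name; right, share of the library in expected counts (bars with exact 95% binomial intervals) and in TPM. EF models have counts in 99 of 105 cases and RFER models in 17 of 42, and VES.SUB models (labelled VES) gain by TPM, from 10.05% to 28.01%.

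Counts were concentrated in few models. L1-4A_EF alone took 11.7% of the library, the 10 leading models 43.5% and the 50 leading models 73.5%. The first 15 models held 50.5% of the counts, and the first 121 models held 90.1%. Those 15 came from 7 classes, with 4 LINE models, a pair each of SINE, LTR, hAT, Tc/mariner and unknown models and 1 Helitron. The effective number of models, the exponential of the Shannon entropy of the shares, was 88.4. At the other end, 114 models had counts above 0 but under 10 and together held 484 counts, 0.865% of the library.

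Classes differed in how many models carried them. In the Tc/mariner and LINE classes 2 models reached 50% of the class, with effective numbers of 5.75 and 5.85. SINE counts were spread over an effective number of 24.99 of 43 models, and VES.SUB12 as their leader took 9.22% of the class. Helitron counts had an effective number of 34.4 of 85 and LTR counts 27.5 of 211. LTR elements combined a strong leader with a long tail, since 4 models reached 50% of the class. By TPM the leaders changed. The 20 models highest in TPM, with each model taken singly, included 13 VES SINEs and no LINE or Helitron. The last of these, VES.SUB27, stood at 12568 TPM, and L1-4A_EF, first by counts, was at rank 41 by TPM.

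**Figure D4:**
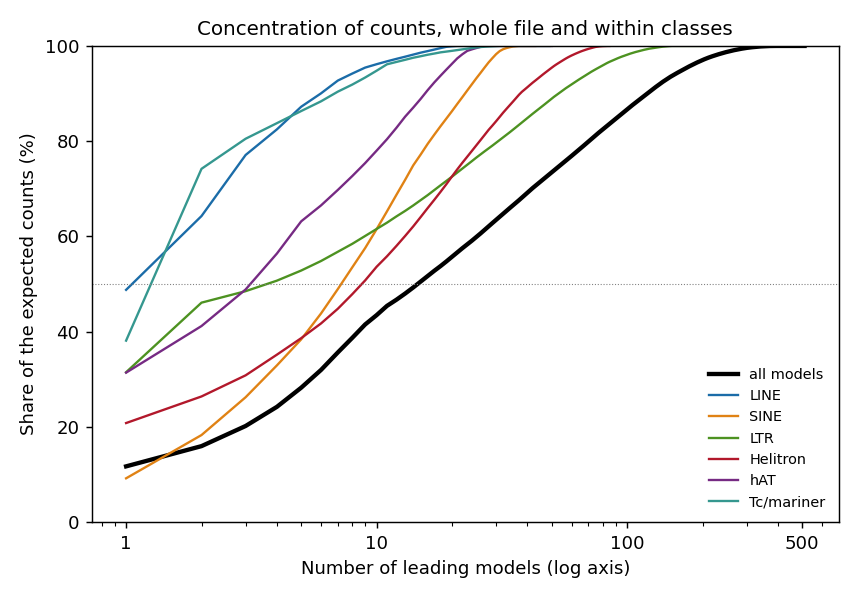
Cumulative share of expected counts (y axis) against the number of leading models (x axis, log) for all models and for 6 classes. All models reach the dotted line at 50% with 15 models, the LINE and Tc/mariner classes with 2 each.

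The deposited TPM intervals mostly had the width that counting alone would give. The confidence level of these intervals is not stated in the table. Over the 269 models with at least 10 counts the median width was 56.6% of the TPM, from 5.39% for L1-4A_EF, 8.13% for MLUC.TC2_122_ORF and 8.30% for MLUC.ERV1-9N-I_ML to 201% for NHELIBAT2_PS. The median ratio to the width of an exact 95% Poisson interval on the same count was 0.978. A ratio over 1.5, a limit set after seeing the data, was found for 24 of the 269 models (8.92%), and a ratio over 1.2 for 39. Among LTR elements none of 84 models passed it, the highest ratio being 1.11, while 7 of 35 SINE models did, all of them VES SINEs. VES_MD and VES.SUB11 reached 1.902 and 1.92.

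The widest intervals relative to counts belonged to pairs of twin models. The table holds 10 pairs of NHELIBAT or NHAT models whose names differ by an A and a letter or hyphen, and in each pair length and expected count were identical. Of these, 6 pairs had counts. NHELIBAT1A_NHU and NHELIBAT1_NH had 303 counts each on 1183 nt, and their TPM of 2421 had intervals of 4.96 to 4675 and 11.1 to 4730. NHELIBAT1A_CRA and NHELIBAT1_CR had 283 counts each, with a TPM of 7699 and intervals of 0.0421 to 14470 and 0.311 to 14818. Each upper bound of these 2 pairs lay at 93.97 to 97.7% of the summed TPM of its pair, and each lower bound near 0. All 12 twin models with counts had ratios from 3.03 to 8.53, and every other model with at least 10 counts was at 2.62 or lower. Just under that limit MLUC.NTC2_555, with 9.82 counts, had a ratio of 4.19. Summed, NHELIBAT1_NH and its twin had 606 counts, and the 5 Helibat pairs held 1766 counts, 17.9% of the Helitron class. NHELIBAT1_CR and its twin summed to 566 counts. These sums lay above the 550 counts of HELITRON-53_EF. In TPM the NHELIBAT1_CR pair summed to 15398, above the 12568 of VES.SUB27, so merging twins places a Helitron among the 20 highest in TPM. The 4 pairs at 0 were hAT models, so that 8 of the 22 silent hAT models were twins. Merged, the file held 377 elements with counts in place of 383.

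Outside the twins and the VES SINEs a few other intervals were wide. MLUC.NTC2_527 had 89.2 counts with a ratio of 2.62 and MLUC.SPIN_NA_9_ML had 22.96 counts with a ratio of 2.24 (TPM 740, 164 to 1604). MLUC.TC1_94_ORF (ratio 1.85) and HELITRON-39B_EF (1.696) followed.

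**Figure D5:**
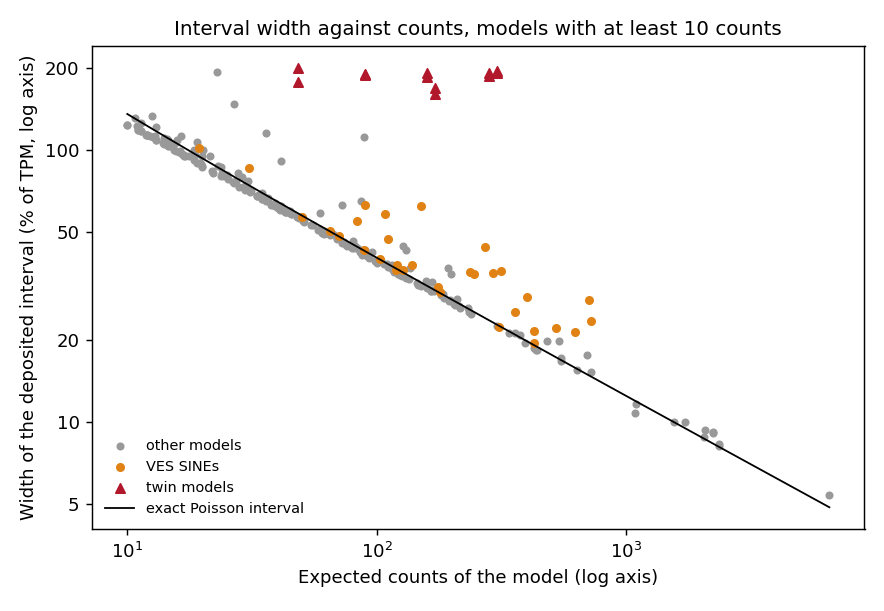
Width of the deposited TPM interval, as a percentage of the TPM, against expected counts for the 269 models with at least 10 counts (both axes log); the line is the width of an exact 95% Poisson interval. Twin models (triangles) stand at 161 to 201% whatever their count, and 7 VES SINEs (orange) lie over 1.5 times the line.

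For models at 0 the upper bound of the interval tells what the depth allows. Converted to counts, the upper bounds of the 128 models had a median of 2.96, close to the floor of 3 counts used here, which is 0.00537% of the library. The bound was highest for MLUC.MYOTIS_TC1, at 14.7 counts, followed by MLUC.SPIN_NA_10_ML at 5.49 and MIR at 4.89, each of which has relatives by name with counts. Because the bound per length falls with model length, it ran from 6.25 TPM for RFER.RHINO.R93.L1 to 673 TPM for the 82 nt model MLUC.NPIGGY269B. RNA of a model below its bound could be missed at this depth, although 39 models had from 1 to under 3 counts and 6 had fewer than 1. The median length was 433.5 nt for models at 0 and 499 nt for models with counts, but within SINEs it was 318 against 210 nt and within PiggyBac elements 316.5 against 205.5 nt. In the dog and horse tables, which hold other models, 65.5% of 955 and 51.4% of 986 models were at a TPM of 0, against 128 of 511 in bat. Read depth was not compared between these libraries, and no test of this difference was made.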

How the data were processed

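The authors' table gives an expected count per repeat model. Bowtie and RSEM are the tools listed in the submitters' processing notes, with no version. The build listed there, CanFam3.1, is that of dog. For the bat models the reference, and for the mRNA library read length, strand and trimming, are not stated in the labels or the file. Per the file headers, the same table holds TPM with a lower and an upper bound for each model. Expected counts over TPM followed model length minus 24 nt, within 0.0104% over 151 models with over 50 counts. This factor converted bounds to counts. Counts were rounded to whole numbers for exact (Clopper-Pearson) 95% binomial intervals of shares, and Poisson intervals used counts as deposited. Both cover counting error only, since reads without molecular identifiers are not independent molecules. With 1 library no test was made. A model at 0 was limited by a floor of 3 counts. Class is the text after # in the name; source is the prefix, otherwise the suffix EF.

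Named models were the 15 with most counts; in each class as filed with at least 5 models, the 3 with most counts, the highest TPM and the longest at 0; the 2 with most counts of each source; the 3 narrowest and 3 widest intervals from 10 counts up; and the 5 internal and LTR pairs. Others were named after their values were seen, by role or name group. Members and lists were chosen with earlier results of these data known. Scripts used Python 3.11.15, numpy 2.4.6, pandas 2.3.3, scipy 1.17.1 and matplotlib 3.10.9. The calculation of share intervals was checked on counts drawn from the observed shares. That check holds no read assignment, so it says nothing on whether the shares themselves are right.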

Additional observations from a re-analysis of the deposited data

How the results depend on the processing

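Weighting by TPM in place of counts moved LINEs from 24.05 to 2.07% of the library, SINEs from 14.04 to 38.7%, LTR elements from 13.4 to 9.16%, DNA transposons other than Helitrons from 26.1 to 25.2% and Helitrons from 17.6 to 13.1%. Without L1-4A_EF these shares were 13.95, 15.9, 15.2, 29.6 and 19.96%, and without the unknown class 25.2, 14.7, 14.1, 27.4 and 18.5%. With HAL1 counted as LINE, LINEs held 30.1% and DNA transposons 20.1%, which turns their order. By TPM the sources EF, MLUC, VES, PVAM, RFER and unmarked held 19.6, 22.2, 28.01, 12.5, 0.553 and 17.2%, and without L1-4A_EF 30.7, 36.1, 11.4, 7.28, 1.99 and 12.5%. With suffixes read first, MLUC held 34.9% and unmarked names 8.08%. The 10 leading models held 34.7% by TPM and 38.2% without L1-4A_EF. The median interval width was 80.2% from 1 count, 30.3% from 100 counts and 0.827 as log2 of upper over lower bound. Wide intervals numbered 24 over 1.5 times the Poisson width and 39 over 1.2 times, a limit added after seeing the data. Models called expressed numbered 377 from 1 count, 338 from 3, 269 from 10 and 318 by the lower bound. Counting MER41, MER87 and MER101 as LTR was added after seeing the data. It moved no class share beyond its interval, except that the DNA transposons without a superfamily lost 116.7 counts. Merging twins, also added after seeing the data, cannot change a class share, since the twins of each pair are filed in the same class. The share of the 10 leading models and the 15 models needed to reach 50% could not change either, since no merged pair ranked above 18. The models needed to reach 50% rose from 15 to 20 by TPM or without L1-4A_EF. Posterior mean counts were not used here. No paired analysis was possible because each group held 1 library.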

Other observations

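All 9 MLT models, LTRs related to ERVL, had counts, 315 in all, led by MLT1B with 145 (TPM 3665, 3065 to 4253) and MLT1A0 with 85.6. The median MLT model had 8.74 counts. Of the 7 Tigger and Golem models 5 had counts, 1 of them at least 10, and TIGGER1 held 204 of their 233. Of the 21 MER models filed as DNA transposons 13 had counts, 4 of them at least 10. Over all 511 models 383 had counts (75.0%), 269 of them at least 10. CHESHIRE_A, an old hAT element, had 17.7.

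Some class labels go against the names. Beside HAL1, 10 models named MER41, MER87 or MER101, known as LTRs of endogenous retroviruses, are filed as DNA transposons and held 117 counts, 11.8% of the DNA transposons without a superfamily. RFER.R71.L1-LIKE is filed as an LTR element with 48.7 counts. RFER.R10.MADE1, known as a mariner-derived element, is filed as a LINE and was at 0. LTR21B1_EC and LTR21B2_EC, whose suffix by naming custom stands for horse, had 28.8 and 16.4 counts in bat.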
